A study of Homo sapiens with 1 sample.

Results

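The internal spacers of the pre-ribosomal RNA (pre-rRNA) and the 5.8S rRNA between them were examined in 1 PAR-CLIP library. The cells, the human embryonic kidney line HEK293T, stably expressed the SFB tag alone (SFB empty vector), and the library served as the negative control of the study. SFB combines peptides that bind S-protein and streptavidin with repeated FLAG epitopes, so this control recovers RNA without a BRCA1 or BARD1 bait. The cells took up 0.1 mM 6-thioguanosine overnight, which lets UV light link RNA to the proteins touching it, and were irradiated with 0.4 J per cm2 at 365 nm before pull-down on streptavidin resin and then on FLAG resin. Libraries with a BRCT domain of BRCA1 or with BARD1 as the bait were not analysed here. The tissue label was not checked against marker genes, because the gene identifiers were not paired with names here.

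The members are 230 bins of 10 bases out of the 4473 bins of the human rDNA unit, chosen by position alone. They comprise 98 bins of ITS1 (positions 5621 to 6600 of the rDNA reference, leaving out its first 10 bins next to 18S), all 15 bins of 5.8S (6601 to 6750) and all 117 bins of ITS2 (6751 to 7920). The value of a bin is a whole number, used without normalization and taken as the number of aligned reads that cover it. Limits on numbers of reads below assume 1 unbroken alignment per read. Only reads that STAR could not place on the T2T-CHM13 genome entered these bins. They came from 16485622 unaligned read pairs, 49.0% of 33677888. Spacer reads that STAR did place are not in the profile, and their number was not tested. On this reading a read is counted in each bin it covers, so neighbouring bins share reads, and summed bins do not count reads. There was 1 library and no replicate, so every value describes that library and no test was made.

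RNA polymerase I transcribes a long precursor in which 18S, 5.8S and 28S rRNA are separated by ITS1 and ITS2 and flanked by external spacers. A cut in ITS1 parts the precursor of the small subunit from that of the large subunit, and a cut in ITS2 parts 5.8S from 28S. The remaining spacer ends are trimmed by nucleases such as the RNA exosome and XRN2, and the excised spacers are degraded. Mature 5.8S stays in the ribosome, base-paired with 28S, so it is abundant while the internal spacers occur only in precursors and short-lived by-products.

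The members made up 17.2% of the bins of the transcribed unit and held 2.60% of its summed counts. The median bin was 380.5 in the ITS1 members, 31430 in 5.8S and 678 in ITS2. Over all 1334 bins of the transcribed unit the median was 3278. The ITS1 median was thus 1.21% of the 5.8S median and the ITS2 median was 2.16% of it. For comparison, the median bin was 367.5 in the 5′ external transcribed spacer (5′ETS), which ranged from 2 to 17983, and 5 in the intergenic spacer outside the transcribed unit. No member bin was at 0, and all 215 bins of the 2 internal spacers lay above the median of the intergenic spacer. Neither was particular to the members. Only 2 of the 1334 bins of the transcribed unit were at 0, and none of these was in the 5′ETS, 18S or 28S. The lowest bins of 18S (14255) and 28S (11) also lay above the median of the intergenic spacer.

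**Figure D1:**
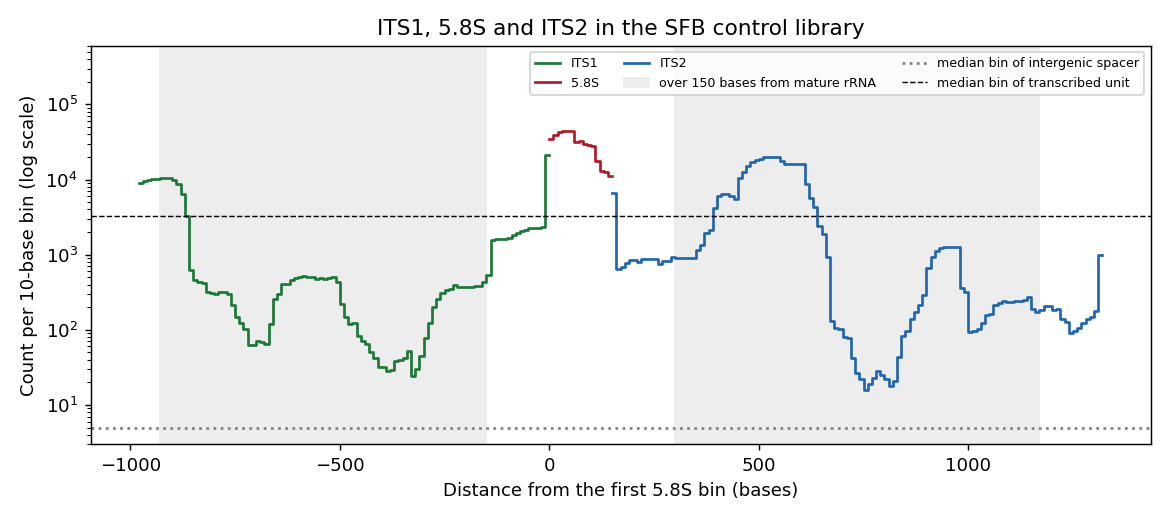
Count per 10-base bin (log scale) against distance in bases from the first 5.8S bin, for the 230 bins of ITS1, 5.8S and ITS2 in the 1 SFB control library. Grey marks spacer bins over 150 bases from every mature rRNA, and the lines mark the medians of the transcribed unit (3278) and of the intergenic spacer (5). Each spacer holds 1 broad high peak and stretches below 100 counts, the lowest bins being 24 in ITS1 and 16 in ITS2.

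Within a spacer the counts were far from even. The ITS1 members ran from 24 at 6271 to 6280 up to 21429 in the last bin before 5.8S, a range of 893-fold. ITS2 ran from 16 at 7351 to 7360 up to 20135 at 7141 to 7150, a range of 1258-fold. The 15 bins of 5.8S varied only 3.99-fold, from 11213 to 44708. The highest 10% of bins held 64.1% of the summed counts of the ITS1 members (10 bins) and 57.5% of those of ITS2 (12 bins). The mean was 4.66 times the median in ITS1 and 4.74 times the median in ITS2, against 0.966 times in 5.8S.

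**Figure D2:**
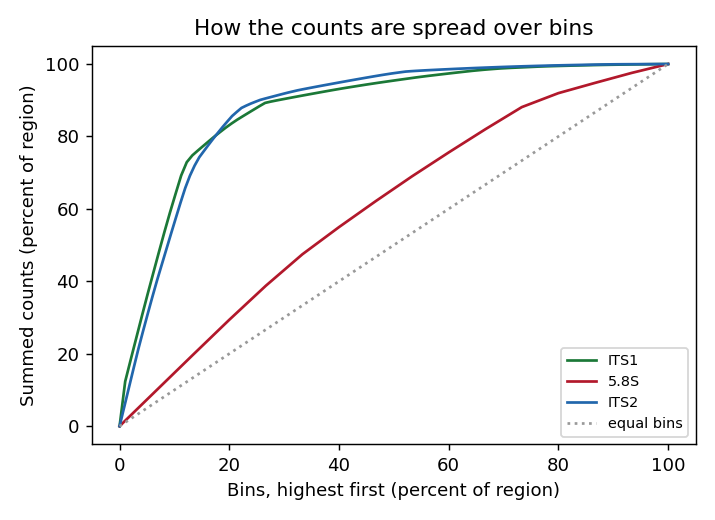
Share of the summed counts of each region (percent) against the share of its bins (percent), taking the highest bins first, for ITS1 (98 bins), 5.8S (15 bins) and ITS2 (117 bins) in the 1 control library. Both spacer curves rise steeply, with 64.1% and 57.5% of counts in the highest 10% of bins, whereas the 5.8S curve stays near the dotted line of equal bins.

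ITS2 was the more heavily covered spacer by the median of all its bins, which include its peak. The ratio of the median ITS2 bin to the median ITS1 bin was 1.78. The means were 3215 and 1772, a ratio of 1.81. In the interior bins, those over 150 bases from every mature region, the medians were 891 in ITS2 (87 bins) and 310.5 in ITS1 (78 bins), a ratio of 2.87. The interior holds 70 of the 190 bases of the ITS1 peak described below and all 290 of the ITS2 peak. Outside these peaks the order depended on the part of ITS2, and it was reversed in the larger part. The median was 329 in the 86 ITS1 members outside the ITS1 peak. It was higher, 871, in the 22 ITS2 bins before the ITS2 peak and lower, 159.5, in the 66 after it. A median over the ITS2 bins on both sides together was not computed. With its first 10 bins included, ITS1 had a median of 406.5 and a mean of 2192. Among the members, the ITS2 maximum was 0.940 times the ITS1 maximum, which lies against 5.8S. The first bin of ITS1, next to 18S and not a member, was higher than both, with 24046 counts. There were 22 ITS1 bins and 20 ITS2 bins under 100 counts, and 26 and 38 bins with 1000 or more.

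The 5.8S region, the RNA that the internal spacers enclose, stood far above its flanks but was not evenly covered. Along the strand its first 6 bins held 34131, 39567, 42831, 44329, 44703 and 44708 counts. The next 5 bins held 31430, 32509, 29953, 29102 and 27931, and the last 4 bins held 17549, 12875, 12516 and 11213. The counts therefore rose over the first 60 bases and then stepped down toward the 3′ end. The mean of the first 6 bins was 41712 against 13538 in the last 4, a ratio of 3.08, and the first 6 bins held 55.0% of the summed counts of 5.8S. A read counts in every bin that it covers, so the highest bin alone corresponds to 44708 aligned reads (95% exact Poisson interval 44295 to 45124, for counting error only), and the lowest to 11213 (11006 to 11423).

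**Figure D3:**
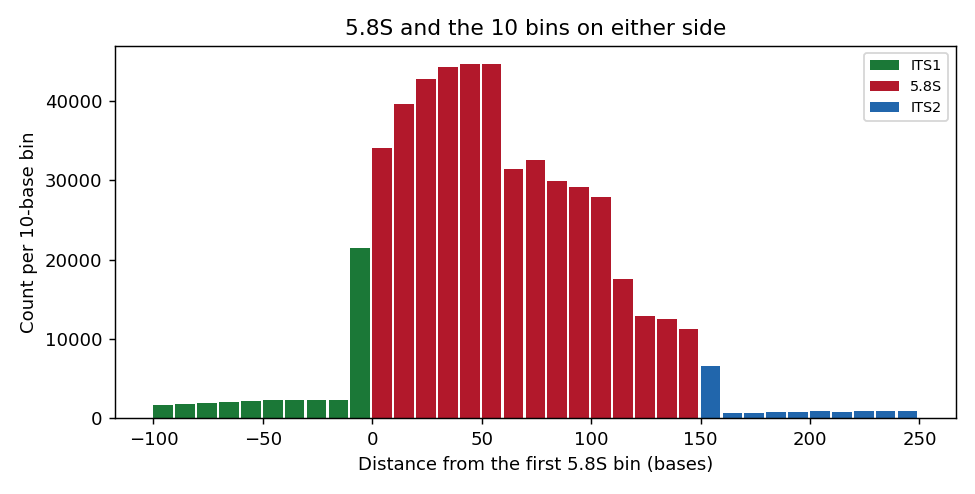
Count per 10-base bin against distance in bases from the first 5.8S bin, for the 15 bins of 5.8S, the last 10 bins of ITS1 and the first 10 bins of ITS2 in the 1 control library. The 5.8S bars step down from 44708 to 11213 toward the 3′ end, and the spacer bars beyond the single bin next to 5.8S stay at or under 2354.

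The largest downward step among all members lay inside 5.8S, where the count dropped by 13278 from 6651–6660 to 6661–6670. The next largest was also inside 5.8S, by 10382 from 6701–6710 to 6711–6720. A step down is the least number of aligned reads that end there. At the 5′ side the largest upward steps were 19075, into the last ITS1 bin, and 12702, from that bin into 5.8S.

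The mean of 5.8S was 30356. It was 37.6% of the 18S mean and 69.7% of the 28S mean. By medians the order against 28S turned, with 5.8S at 138% of the 28S median and 67.0% of the 18S median.

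The 10 ITS1 bins before 5.8S had a mean of 4017 and the 10 ITS2 bins after it a mean of 1380. The 5.8S mean was 11.3 times the mean of these 20 bins, 7.56 times that of the ITS1 side alone and 22.0 times that of the ITS2 side alone. The ratio over both sides depended on the single bins that touch 5.8S. The last ITS1 bin held 21429 counts, 62.8% of the first 5.8S bin, and the first ITS2 bin held 6567, 58.6% of the last 5.8S bin. One bin further out the counts were 2354 and 647. Without the bins that touch 5.8S the ratio was 21.0 for both sides, 14.6 for ITS1 and 37.8 for ITS2, a setting chosen after seeing the data. Whole bins were assigned to regions, and whether the ends of mature 5.8S lie inside these edge bins was not tested. The ITS1 maximum of 21429, and with it the 893-fold range of the ITS1 members, rests on such an edge bin. In the interior of ITS1 the range was 442-fold, from 24 to 10604.

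Few of the reads on 5.8S ran far into the spacers. At most 2354 reads could have run from 5.8S across the ITS1 bin at 6581 to 6590, and at most 647 across the ITS2 bin at 6761 to 6770. Of the 44708 reads over the highest 5.8S bin, at least 41707 (93.3%) therefore lay wholly within the 170 bases from 6591 to 6760.

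Away from the mature ends the counts fell as a step, and what followed was a plateau. The distance from the boundary to the first bin at or under 50% of the mature level was 10 bases from 5.8S into ITS1, 0 bases from 5.8S into ITS2 and 0 bases from 28S into ITS2, the mature level being the mean of the 5 nearest mature bins (41112, 16417 and 92359). The distance to 10% of that level was 10, 10 and 0 bases. At the 10-base resolution of the table the fall thus took 1 or 2 bins at each of these ends.

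Moving from 5.8S back into ITS1, the 10 nearest bins held 21429, 2354, 2297, 2282, 2237, 2120, 2069, 1925, 1802 and 1656 counts. After the first of them the counts declined at every bin, but slowly. This stretch ended abruptly at 6461, 140 bases from 5.8S, where the count changed from 1546 to 540 within 1 bin. That distance is close to the 150 bases of a read, and a link to read length was not tested. The 13 bins from 6461 to 6590 had a median of 1925, and the 14 bins on the far side (6321 to 6460) had a median of 374.5. The level of 1% of 5.8S, a setting chosen after seeing the data, was reached 160 bases from 5.8S.

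On the other side of 5.8S there was no decline away from the mature end. The 10 ITS2 bins next to 5.8S held 6567, 647, 678, 772, 842, 856, 810, 881, 874 and 868. Beyond the first of these bins 5 changes from bin to bin were upward and 3 downward. The 1% level was not reached until 520 bases from 5.8S, beyond the peak of ITS2 described below.

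The 28S end of ITS2 was the sharpest. The ITS2 bin next to 28S held 989 counts, 1.07% of the 28S level, against 49690 in the first 28S bin. The 9 bins before it, moving away from 28S, held 180, 149, 140, 125, 106, 96, 91, 126 and 139. Their median of 126 was 0.136% of the 28S level. The medians of the corresponding 9 bins next to 5.8S were 5.16% in ITS1 and 5.13% in ITS2 of their own mature levels. Those levels differed, at 41112 and 16417 for the 2 ends of 5.8S. The medians themselves, 2120 and 842 counts, were 6.98% and 2.77% of the mean of all 5.8S bins. At most 180 reads could have joined 28S to ITS2 across the bin at 7901 to 7910, which is 0.362% of the count in the first 28S bin.

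**Figure D4:**
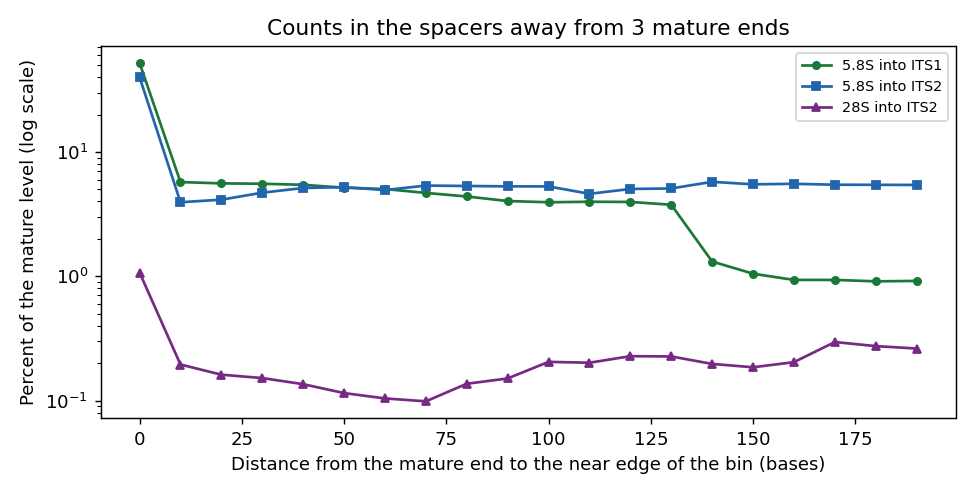
Count as percent of the mature level (mean of the 5 nearest mature bins, log scale) against distance in bases from the mature end, for the 20 nearest spacer bins at each of 3 ends in the 1 control library. All 3 lines drop within 2 bins; the ITS1 line then steps down at 140 bases, the line from 5.8S into ITS2 stays near 5%, and the line from 28S stays near 0.1% to 0.3%.

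A peak was defined as a run of interior bins at 2 or more times the interior median of its spacer. Each spacer had 1 peak by this definition, and also at 3 and at 5 times the median. Measured against a running median of 41 bins, each spacer had 2.

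The ITS1 peak lay at the 18S side of the spacer. The run of bins at or over the threshold extended from 5551 to 5740 (190 bases), so its first 7 bins are among those next to 18S that are not members. It began 30 bases from the end of 18S, and its highest bin, at 5681 to 5690, held 10604 counts (95% exact Poisson interval 10403 to 10808, counting error only), 34.2 times the interior median. The member bins of the run rose from 8950 at 5621 to this maximum and then fell to 6402 at 5721, 3273 at 5731 and 617 at 5741. The 12 member bins in it held 62.4% of the summed counts of the ITS1 members, and the 86 members after it had a median of 329.

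Bins with few reads separated this peak from 18S. The last 18S bin held 27107 counts, and the first 3 bins of ITS1 held 24046, 808 and 224. At most 224 reads could have run from 18S through the bin at 5541 to 5550 into the peak. At least 9763 reads lay wholly within the 190 bases of the run.

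The ITS2 peak was higher and lay in the 5.8S-side part of the spacer, apart from both mature ends. It extended from 6971 to 7260 (290 bases), beginning 220 bases after 5.8S and ending 660 bases before 28S. Its highest bin, at 7141 to 7150, held 20135 counts (19858 to 20415), 22.6 times the interior median. The ITS2 interior median includes all 290 bases of its peak, and that of ITS1 only 70 of 190. The values of 22.6 in ITS2 and 34.2 in ITS1 are therefore not comparable as measures of peak height. The maximum of 20135 was 1.90 times that of the ITS1 peak in this library. The Poisson intervals of the 2 bins cover counting error only, and without a replicate they cannot show whether the peaks differ. The 29 bins of the run held 88.4% of the summed counts of ITS2. Only 6 ITS2 bins exceeded the highest bin of the 5′ETS, and all were in this peak. That 5′ETS bin, with 17983 counts at 3651 to 3660, is the last of its region and touches mature rRNA. The median 5′ETS bin was 367.5.

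The ITS2 peak had a shoulder on its 5′ side. The 6 bins from 6991 to 7050 stayed between 4124 and 6517, and at 7051 the count then rose by 4925, the largest upward step inside a spacer apart from the bin that touches 5.8S. The bins from 7051 to 7210 were all over 50% of the maximum, which is 160 bases, and the corresponding width of the ITS1 peak was 150 bases. A read has 150 bases, and whether read length set these widths was not tested. On the 3′ side the count dropped by 7114 at 7211, from 15856 to 8742, then to 931 at 7261 and 130 at 7271. At least 17861 reads lay wholly within the 290 bases of the run.

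**Figure D5:**
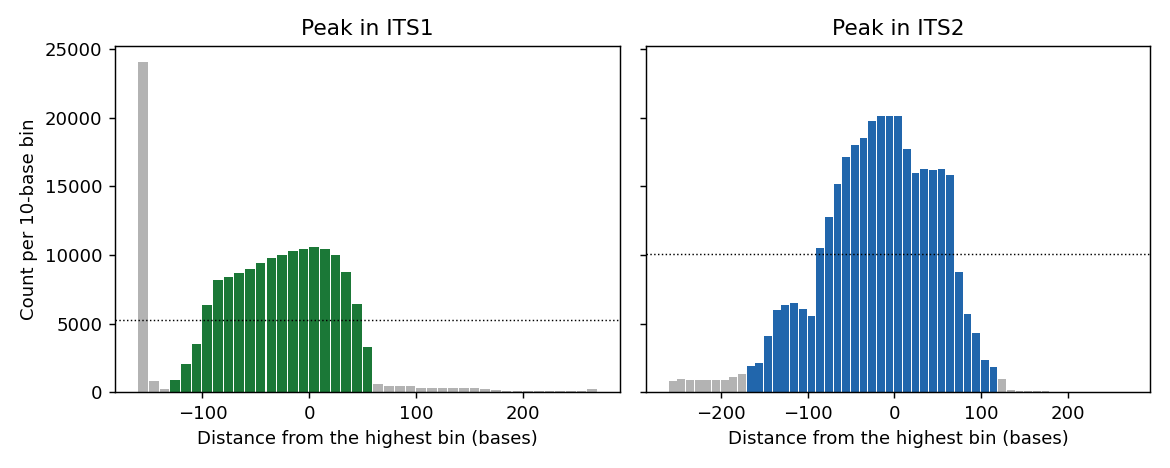
Count per 10-base bin against distance in bases from the highest bin, for the peak of ITS1 (left) and the peak of ITS2 (right) in the 1 control library. Coloured bars are the bins of the peak, grey bars their neighbours in the same spacer, and the dotted lines mark 50% of each maximum. The ITS1 maximum is 10604 and the ITS2 maximum 20135, and the tall grey bar at the left is the first ITS1 bin next to 18S (24046).

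The parts of ITS2 on either side of its peak differed in level. The 22 bins between 5.8S and the peak had a median of 871, and the 66 bins between the peak and 28S had a median of 159.5, a ratio of 5.46. The long stretch nearest to 28S, 31 bins from 7601 to 7910 without a change of over 1.5-fold between neighbours, ran from 91 to 273 with a median of 180.

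Smaller hills were present in both spacers. In ITS1 the 16 bins from 5941 to 6100 lay between 257 and 519, with the maximum of 519 at 6011 to 6020 (475 to 566). In ITS2 the 8 bins from 7501 to 7580 lay between 659 and 1282, and the last 3 of them each held exactly 1282. The next bin held 361. Each hill stood over its running median, by 2.46-fold in ITS1 and 6.08-fold in ITS2.

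Between these hills lay stretches with few reads. In ITS1 the 17 bins from 6141 to 6310 were all under 100, with a median of 42, and the 5 bins from 5881 to 5930 lay between 62 and 70. In ITS2 the 16 bins from 7301 to 7460 were all under 100, with a median of 26. The lowest single bins were 24 in ITS1 (95% exact Poisson interval 15.4 to 35.7) and 16 in ITS2 (9.15 to 26.0). These bins were 4.80 and 3.20 times the median bin of the intergenic spacer. Of the 98 ITS1 bins 76 exceeded the 99th percentile of the intergenic spacer, which was 85.5, as did 102 of the 117 ITS2 bins. This was not particular to the internal spacers. The 25th percentile of the 5′ETS bins was 139.25, so most of them exceeded 85.5 too.

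Interior bins bound the number of reads that belong to the spacers themselves. Provided that alignments do not exceed the 150 bases of a read, a read that touches a mature region cannot reach them, and bins whose starts lie 160 bases or more apart cannot share a read. The largest sum over such bins was 11818 in ITS1 and 24356 in ITS2, each over 5 bins. These are lower limits for this library, and most of each came from the single peak of the spacer.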

How the data were processed

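After cleaning, the authors aligned the reads to T2T-CHM13 with STAR (version 2.7.6a in the submitters' processing notes, another version in the methods) and the unaligned reads to the human 45S rDNA reference with BLASTN, and they deposited the counts in 10-base bins. The methods call these bins normalized, but the deposited counts are whole numbers and were used as raw counts. Their sum, 38730472, exceeded the 32971244 reads that could enter the step, so reads enter more than 1 bin. Deposited STAR counts of read pairs gave the depth. The deposited gene counts of featureCounts were not used.

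Regions were taken per bin from the table. Means, medians, runs, steps and bounds were computed with Python 3.11.15, numpy 2.4.6 and pandas 2.3.3, and exact Poisson intervals with SciPy 1.17.1. Intervals cover counting error only, since reads of 1 molecule cannot be recognised without molecular identifiers. Bins named were the 15 of 5.8S, the 10 next to each mature end, the extremes, the peaks and the largest steps. Hills, stretches and low runs were added after seeing the data. The members and lists were chosen with earlier results of these data known. On 50 simulated profiles the bound was at or below the simulated number of alignments in 50, which must hold wherever the summed bins share no read. The simulated peak was found at its place and no other in 50, and the simulated drop distance was recovered in 50. These simulations check the computation only and say nothing about the peaks or drops of this library. The rDNA sequence was not used here.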

Additional observations from a re-analysis of the deposited data

How the results depend on the processing

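With 1 library and no interval for a mean or sum of bins, each value that differed in print from the reported one is listed, and the causes of the differences were not tested. No paired analysis was possible because only a single library was analysed here. Of 35 alternatives 11 left the value as reported.

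The ITS2 to ITS1 ratio of 1.78 was 1.81 by means, 2.87 in interior bins and 2.43 leaving out 10 bins at both ends of each spacer. It stayed over 1 in all 4 alternatives run, none of which left out the ITS2 peak. The ratio of 5.8S to its flanks, 11.3, was 7.57 with 5 bins on each side, 17.0 with 20 bins, 7.56 and 22.0 with the ITS1 and ITS2 flank alone, 18.2 by medians, and 12.0 with the first ITS2 bin counted as 5.8S. It was 21.0 when the bins touching 5.8S were left out, a setting added after seeing the data.

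The distance from 5.8S into ITS1, 10 bases, was 0 on a running mean of 3 bins. That from 5.8S into ITS2, 0 bases, was 10 at 10% of the mature level and 10 against the 1 nearest mature bin. At 1% of the mature level, chosen after seeing the data, the distances were 160 (5.8S into ITS1), 520 (5.8S into ITS2) and 10 (28S into ITS2) bases. The interior medians of 310.5 in ITS1 and 891 in ITS2 were 342.5 and 756 at over 100 bases from mature regions, and 256.5 and 923 at over 200 bases. The running median gave 2 peaks in ITS1 and 2 in ITS2 in place of 1. With starts 310 bases apart, as for alignments that join both reads of a pair, the least numbers of alignments were 11554 in ITS1 and 21417 in ITS2.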
